A study of Mus musculus with 8 samples.

Results

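The genes described here are 26 genes of cholesterol synthesis and its control by the transcription factor SREBP2, read from liver RNA of mice with and without hepatocyte *Smpd3*. They were taken by name from a list ordered by pathway step, and all 26 were found among the 55416 gene identifiers of the deposited table. The list holds 4 regulators, 2 genes that supply acetyl-CoA and acetoacetyl-CoA, 19 enzymes from *Hmgcs1* to *Dhcr7*, and 1 sterol carrier. The rule names genes and uses no measured value, but the list was drawn up with earlier results of these data known.

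The knockout group was 4 liver libraries of mice in which a Cre recombinase under the albumin (*Alb*) promoter removed floxed *Smpd3* in hepatocytes. The floxed control group was 4 libraries of mice that lacked the Cre. Both groups had eaten the HFMCD diet for 9 weeks to bring on metabolic steatohepatitis. Every library thus comes from a liver under that diet, and no library on another diet was analysed here. The controls carried no Cre, so that effects of Cre itself and of losing *Smpd3* cannot be told apart. The labels give neither age nor sex. Nor do they say whether libraries of a group came from different animals, and the p-values then measure only how these samples spread, which may be technical.

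Cholesterol is built in the cytosol and endoplasmic reticulum from acetyl-CoA, through mevalonate, farnesyl diphosphate, squalene and lanosterol. The liver is a main site of this synthesis. SREBP2 is made as a membrane precursor bound to its escort protein Scap. When sterols are plentiful, the Insig proteins hold the Scap complex in the endoplasmic reticulum. When sterols are scarce, Scap carries the precursor to the Golgi, where proteases free the active factor, which enters the nucleus and turns on most genes of the pathway. *Insig1* is itself a target of the factor, whereas in mouse liver *Insig2* has a transcript that insulin represses. Transcript levels do not show how much of the precursor is cleaved.

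No gene among the 26 reached an adjusted p of 0.05 (limma on log2(TPM + 1), Benjamini-Hochberg over all genes tested), where 0.102% of the 12710 tested genes did so. Only *Insig1* had an unadjusted p under 0.05, which is 1 of 26 members beside 8.02% of all tested genes. In no member did the knockout and control libraries separate without overlap, beside 4.74% of all tested genes. The log2 fold change, knockout minus control, was above 0 in 22 of the 26 members (84.6%), with a median of 0.11, beside 64.6% of all tested genes and their median of 0.05. The 95% intervals of the fold change included 0 in every member but *Insig1*.

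That count of directions moved with the scaling. After median-of-ratios scaling of the libraries, 19 of the 26 members (73.1%) were above 0 with a median of 0.06, beside 51.0% of all tested genes. After quantile normalization it was 18 of 26 (69.2%), beside 50.4% of all tested genes. Without floxed control 4 it was 17 of 26, with a median of 0.07, beside 48.7% of all tested genes. Without floxed control 3 the members came close to the background. There 18 of 26 (69.2%) were above 0 with a median of 0.08, beside 64.9% of all tested genes and their median of 0.06.

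**Figure D1:**
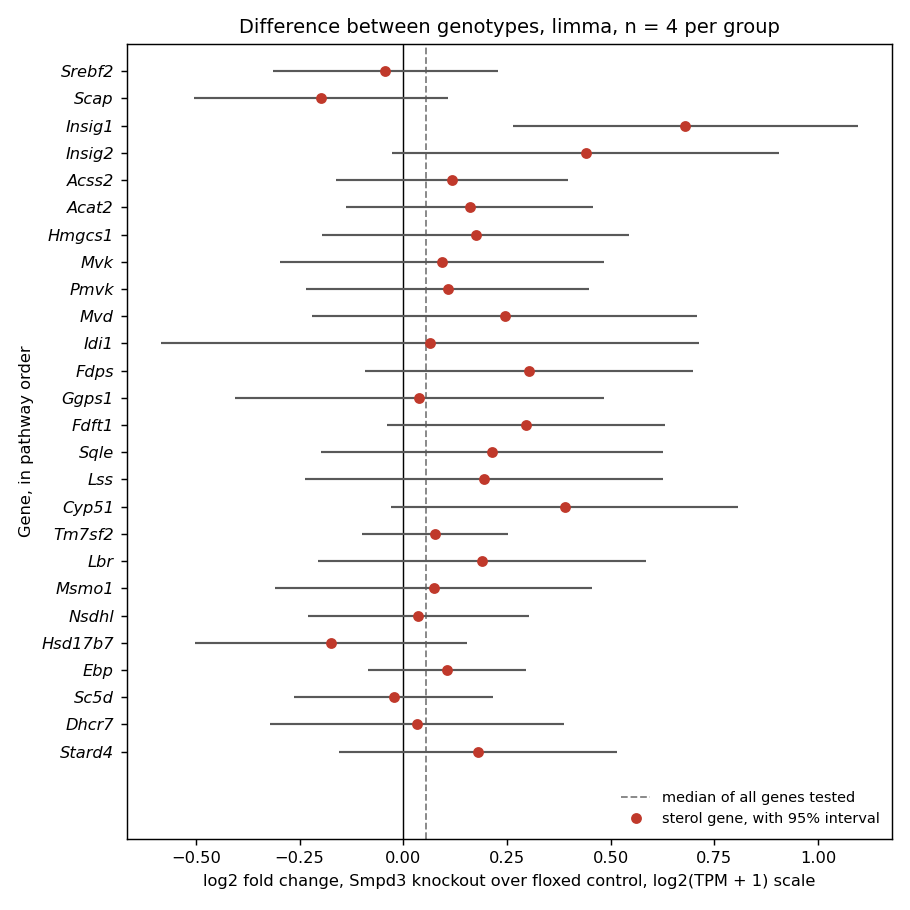
Log2 fold change of each of the 26 genes, knockout minus floxed control, on the log2(TPM + 1) scale (x axis), with genes listed by pathway step (y axis). Points are limma estimates, bars their 95% confidence intervals (n = 4 per group) and the dashed line the median of all tested genes, 0.05. The interval of *Insig1*, 0.26 to 1.10, lies to the right of 0, and those of the other genes include 0.

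The knocked-out gene served as the check of the labels. *Smpd3*, which encodes neutral sphingomyelinase 2, fell to 1.88 ± 0.86 TPM in the knockout livers, against 9.58 ± 2.65 TPM in the floxed controls (SD, n = 4 each). Its log2 fold change was -1.89 with an adjusted p of 0.0300 in limma. The limma adjusted p rose above the threshold without knockout 1 (0.0677), knockout 3 (0.0638), control 1 (0.0872), control 2 (0.0579), control 3 (0.0504) or control 4 (0.0964), while the log2 fold change stayed between -2.06 and -1.76. It was also above the threshold with no filter on low values (0.167) and with the replicate block (0.0818). TPM is a share of each library's own total and keeps no depth. The knockouts had 12474 to 12890 genes at 1 TPM or more and the controls 12115 to 12871. Floxed control 4 had the fewest, with 33.8% of its TPM in its 20 most abundant genes, and knockout 1 had the next fewest. The tissue label was checked on 8 hepatocyte markers, which summed to between 65447 and 77346 TPM in the knockouts and between 71232 and 83056 TPM in the controls, with 0 of the 8 called. Among them only *Serpinc1* separated, higher in the knockouts, with an adjusted p of 0.186 in limma.

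The libraries were of whole liver, so that fewer cells of a type and less RNA per cell cannot be told apart. Summed markers of other cell types overlapped between the groups, and none of those lists had a called member. The 8 endothelial markers, all below 0 in fold change, summed to between 49.4 and 72.2 TPM in the knockouts and between 39.5 and 113 TPM in the controls. The macrophage markers summed to between 488 and 811 TPM in the knockouts and between 391.6 and 819 TPM in the controls. The stellate cell markers summed to between 430 and 608 TPM in the knockouts and between 249 and 547 TPM in the controls. The cholangiocyte markers summed to between 180 and 632 TPM in the knockouts and between 246 and 467 TPM in the controls. Most of that sum was *Spp1*, with means of 381 TPM in the knockouts and 319 TPM in the controls. The T and NK cell markers summed to between 10.3 and 29.0 TPM in the knockouts and between 8.55 and 21.5 TPM in the controls. The B and plasma cell markers summed to between 10.8 and 19.3 TPM in the knockouts and between 10.1 and 22.5 TPM in the controls. No marker was at 0 in all libraries, and the part of these cells in the sterol gene values was not tested.

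The promoters of all members with a RefSeq window were searched for short motifs of SREBP2 and of factors known to act beside it. Stretches of 4 members are printed here. *Insig1* is shown because it has the smallest p of the list, *Insig2* because it is its paralog, and *Hmgcs1* and *Mvk* because they are the first enzymes of the chain. The stretches are RefSeq windows on GRCm38.p6, written 5′ to 3′ on the gene's strand and upstream of its annotated start. *Insig2* has 3 such windows with different starts, and only window 1 is printed. The GGGCGG matches of *Insig2* lie in windows 2 and 3. They lie at chr5:28071162-28071362 on the plus strand (*Insig1*), chr1:121332590-121332839 on the minus strand (*Insig2*), chr13:119690101-119690350 on the plus strand (*Hmgcs1*) and chr5:114444019-114444268 on the plus strand (*Mvk*). The *Insig1* stretch leaves out the last 49 bases before its RefSeq start, which hold its sterol element, and of the 4 printed stretches only that of *Hmgcs1* shows one. Capitals mark matches, on either strand, to the motif CCAAT of the NF-Y factor, the motif GGGCGG of the Sp1 factor, the sterol element written as CACNCCAC and the E-box CACGTG.
Insig1: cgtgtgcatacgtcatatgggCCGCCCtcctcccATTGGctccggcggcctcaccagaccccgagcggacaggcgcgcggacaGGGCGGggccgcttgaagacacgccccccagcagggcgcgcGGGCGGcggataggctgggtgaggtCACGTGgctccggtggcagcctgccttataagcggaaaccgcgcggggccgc
Insig2: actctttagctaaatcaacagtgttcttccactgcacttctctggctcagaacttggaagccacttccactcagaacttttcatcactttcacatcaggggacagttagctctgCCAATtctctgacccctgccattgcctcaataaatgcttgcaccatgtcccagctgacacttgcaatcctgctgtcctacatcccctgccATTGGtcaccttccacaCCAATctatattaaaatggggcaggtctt
Hmgcs1: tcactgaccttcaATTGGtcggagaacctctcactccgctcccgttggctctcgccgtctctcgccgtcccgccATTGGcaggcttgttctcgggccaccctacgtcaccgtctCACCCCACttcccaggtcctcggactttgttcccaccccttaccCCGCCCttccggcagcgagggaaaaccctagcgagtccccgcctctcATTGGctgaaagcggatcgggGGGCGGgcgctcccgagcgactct
Mvk: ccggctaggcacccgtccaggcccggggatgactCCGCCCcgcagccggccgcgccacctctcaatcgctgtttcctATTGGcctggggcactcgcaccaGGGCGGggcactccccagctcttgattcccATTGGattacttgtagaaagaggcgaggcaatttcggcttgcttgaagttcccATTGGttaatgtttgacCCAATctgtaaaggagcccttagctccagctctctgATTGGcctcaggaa

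RefSeq windows of 250 bases before to 50 after the start were found for 22 of the 26 members, 28 windows in all. The motif CCAAT occurred on either strand in 20 of the 22 members (90.9%), in 37.4% of all 32851 windows and in 42.8% of the 9500 tested genes with a window. The motif GGGCGG occurred in 20 of 22 members (90.9%), in 35.7% of all windows and in 66.6% of those tested genes. The E-box CACGTG occurred in *Scap*, *Insig1*, *Hsd17b7*, *Sc5d* and *Dhcr7*, which is 22.7% of the 22 members beside 11.9% of the tested genes. The sterol element CACNCCAC occurred in *Insig1*, *Acat2* and *Hmgcs1* (13.6%), beside 7.67% of the tested genes. In *Hmgcs1* it reads CACCCCAC and begins 136 bases before the RefSeq start. The last 35 of the 50 bases after the start were found in a GENCODE M21 transcript for 18 of the 22 members. The bases next to the start were not checked. *Hmgcs1* is among the 4 members without such a match, so its distance holds for the RefSeq start alone. CCAAT was not found in the windows of *Scap* and *Acat2*, nor GGGCGG in those of *Pmvk* and *Ggps1*. A match describes the letters and not a bound site, and the 4 motifs can overlap.

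Among the regulators, *Insig1* stood highest in fold change, and the transcription factor and its escort stayed near 0 or below. *Srebf2* (ENSMUSG00000022463), which encodes SREBP2, had 20.64, 27.15, 25.47 and 26.23 TPM in knockouts 1 to 4, against 30.00, 26.14, 23.32 and 23.20 TPM in floxed controls 1 to 4. The libraries of both groups lay over the same range, with knockout 1 lowest and control 1 highest of all. Its log2 fold change was -0.04 ± 0.12 (SE), with a 95% interval of -0.31 to 0.23 and an adjusted p of 0.980 in limma.

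*Scap* (ENSMUSG00000032485) encodes the escort protein that senses sterols and carries SREBP precursors. It had 19.42, 27.14, 25.81 and 26.99 TPM in knockouts 1 to 4, against 32.87, 31.12, 25.99 and 24.44 TPM in controls 1 to 4. Controls 1 and 2 stood above every knockout, but controls 3 and 4 lay within the knockout range. The log2 fold change was -0.20 ± 0.14 (SE), with an adjusted p of 0.817 in limma. After median-of-ratios scaling, *Scap* read 21.2 to 25.2 in the knockouts and 26.2 to 31.1 in the controls, so that the groups no longer overlapped. The log2 fold change was then -0.25, with an adjusted p of 0.385 in limma.

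*Insig1* (ENSMUSG00000045294) encodes the sterol-responsive anchor of the Scap complex. It had 69.53, 89.82, 112.32 and 113.14 TPM in knockouts 1 to 4, against 70.08, 72.35, 48.22 and 48.04 TPM in controls 1 to 4. Knockouts 2, 3 and 4 stood above every control, and the groups overlapped because knockout 1 lay just under controls 1 and 2. The mean was 96.2 ± 20.8 TPM in the knockouts and 59.7 ± 13.4 TPM in the controls (SD, n = 4 each), or 161% of the control mean. The log2 fold change was 0.68 ± 0.19 (SE), with an unadjusted p of 0.00439 and an adjusted p of 0.274 in limma. Over the 18 alternative settings the log2 fold change ran from 0.59 to 0.83 and the adjusted p from 0.130 to 0.623. After median-of-ratios scaling *Insig1* read 76.0 to 109 in the knockouts and 48.6 to 69.8 in the controls, without overlap.

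*Insig2* (ENSMUSG00000003721), the paralog with the same anchoring role, was the most abundant of the 26 genes by mean TPM. It had 250.31, 293.19, 255.23 and 358.52 TPM in knockouts 1 to 4, against 181.08, 202.86, 338.18 and 158.88 TPM in controls 1 to 4. Controls 1, 2 and 4 lay below every knockout, while control 3 lay above all but knockout 4. The mean was 289 ± 49.96 TPM in the knockouts and 220 ± 80.6 TPM in the controls (SD, n = 4 each). The log2 fold change was 0.44 ± 0.21 (SE), with an adjusted p of 0.660 in limma. Without control 3 it was 0.67, with an adjusted p of 0.165 in limma, and the groups separated, as they did in 7.38% of all tested genes in that setting.

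Control 3 also stood apart from the other controls in clock-driven genes. *Dbp*, a circadian transcription factor gene, had 2.67, 3.06, 3.27 and 1.68 TPM in knockouts 1 to 4, against 18.64, 35.43, 5.43 and 31.43 TPM in controls 1 to 4. Of the 14 tested genes of the circadian clock list, 9 had an unadjusted p under 0.05, beside 8.02% of all tested genes, and the groups separated in 6, beside 4.74%. In limma 1 of the 14 was called, beside 0.102% of all tested genes. It was *Arntl*, a core clock activator that rose by 1.41 ± 0.21 (SE) on the log2 scale with an adjusted p of 0.0490. The limma adjusted p of *Arntl* lay between 0.0504 and 0.154 when each library was left out, and was 0.230 with no filter on low values, 0.139 with the replicate block, and 0.0572 and 0.0544 with pseudocounts of 0.1 and 5. The sample titles give no time of collection. The part of the clock in the values of *Insig2*, *Insig1* and the other members was not tested. The ratio of *Insig2* to *Insig1* TPM was 3.60, 3.26, 2.27 and 3.17 in knockouts 1 to 4, against 2.58, 2.80, 7.01 and 3.31 in controls 1 to 4. The groups overlapped in that ratio, and control 3 had the highest.

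**Figure D2:**
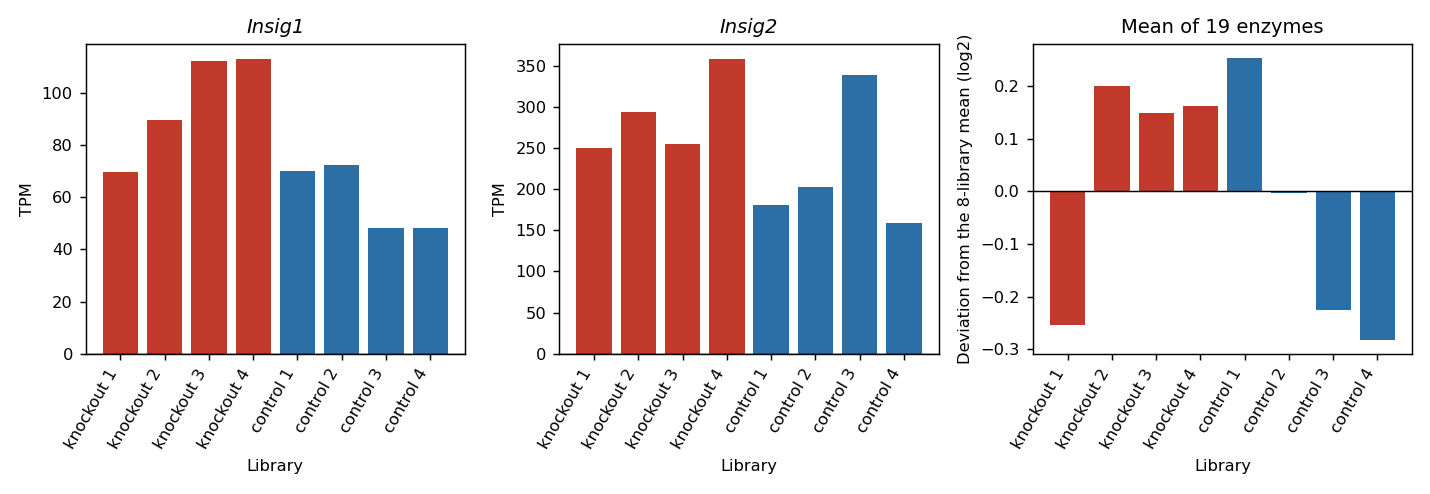
Bars give the TPM of *Insig1* (left) and *Insig2* (middle) and the mean log2 deviation of the 19 enzymes from the 8-library mean (right) in each library, knockouts 1 to 4 in red, then floxed controls 1 to 4 in blue. Knockout 1 is at the control level for *Insig1*, control 3 is at the knockout level for *Insig2*, and the enzyme mean runs from -0.28 in control 4 to 0.25 in control 1.

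Before mevalonate, *Acss2* and *Acat2* were close in level and in difference. *Acss2* (ENSMUSG00000027605), which makes acetyl-CoA from acetate in the cytosol, had 26.04, 34.96, 33.25 and 29.34 TPM in knockouts 1 to 4, against 30.14, 32.82, 25.40 and 25.28 TPM in controls 1 to 4. Its log2 fold change was 0.12 ± 0.13 (SE, adjusted p = 0.903 in limma). The groups overlapped. *Gss*, which averaged 127 TPM, overlaps its locus on the opposite strand.

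*Acat2* (ENSMUSG00000023832), the cytosolic thiolase that joins acetyl-CoA units, had 26.58, 32.66, 32.85 and 34.22 TPM in knockouts 1 to 4, against 35.32, 28.59, 25.51 and 23.92 TPM in controls 1 to 4. Control 1 was the highest of all 8 libraries and control 4 the lowest. The difference on the log2 scale was 0.16 ± 0.13 (SE, adjusted p = 0.863 in limma). Its near-copy *Acat3* averaged 224 TPM over the 8 libraries, so the *Acat2* value is uncertain wherever reads could be split between the pair.

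From *Hmgcs1* to the isoprenoid diphosphates, all 7 genes had a fold change above 0, with a median of 0.11, and none passed the test. Of all tested genes 64.6% were above 0, with a median of 0.05. *Ggps1* fell below 0 after median-of-ratios scaling, and *Idi1* and *Ggps1* after quantile normalization. *Fdps* (ENSMUSG00000059743), the farnesyl diphosphate synthase, was both the most abundant of them and the one with the largest difference. It had 137.85, 192.95, 205.57 and 199.49 TPM in knockouts 1 to 4, against 189.14, 172.28, 113.22 and 126.92 TPM in controls 1 to 4. Knockouts 2, 3 and 4 stood above every control, and knockout 1 lay below controls 1 and 2, as for *Insig1*. The log2 difference of *Fdps* was 0.30 ± 0.18 (SE), with an interval of -0.09 to 0.70 and an adjusted p of 0.7502 in limma. Without knockout 1 the groups separated and the log2 fold change was 0.44, with an adjusted p of 0.382. *Fdps* shares its strand and part of its locus with the gene model *Gm43738*, which averaged 6.90 TPM.

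*Hmgcs1*, the synthase that makes HMG-CoA, averaged 128 ± 22.2 TPM in the knockouts and 115 ± 27.2 TPM in the controls, with a log2 fold change of 0.17 ± 0.17 (SE). *Mvk*, the first kinase of mevalonate, averaged 25.0 ± 5.24 TPM in the knockouts and 23.2 ± 4.22 TPM in the controls, a log2 fold change of 0.09. *Pmvk*, the next kinase, averaged 29.3 ± 2.98 TPM in the knockouts and 27.5 ± 6.04 TPM in the controls, a log2 fold change of 0.11. In these 3 genes the groups overlapped almost wholly. *Mvd*, the decarboxylase that yields isopentenyl diphosphate, averaged 17.0 ± 3.62 TPM in the knockouts and 14.4 ± 4.42 TPM in the controls, a log2 fold change of 0.24 ± 0.21 (SE).

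*Idi1*, which interconverts the isoprene units, varied most between libraries. It ranged from 21.68 TPM in knockout 1 to 47.48 TPM in knockout 4 among the knockouts, and from 24.23 TPM in control 3 to 58.02 TPM in control 1 among the controls. The estimate was a log2 fold change of 0.07 ± 0.29 (SE), and its interval of -0.58 to 0.71 leaves the size of any difference poorly fixed. *Ggps1*, which takes farnesyl diphosphate to geranylgeranyl diphosphate and so off the sterol path, averaged 4.52 ± 1.12 TPM in the knockouts and 4.39 ± 1.21 TPM in the controls, a log2 fold change of 0.04. *Ggps1* overlaps *Arid4b* on the opposite strand, which averaged 3.65 TPM.

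The 3 steps from farnesyl diphosphate to lanosterol had fold changes above 0, with a median of 0.21, and none passed the test. Beside them, 64.6% of all tested genes were above 0. *Fdft1* (ENSMUSG00000021273), the squalene synthase that commits carbon to sterols, had 38.96, 52.95, 50.38 and 53.06 TPM in knockouts 1 to 4, against 49.36, 43.39, 33.99 and 32.66 TPM in controls 1 to 4. Knockouts 2, 3 and 4 again stood above every control, and knockout 1 lay between controls 2 and 3. The difference on the log2 scale was 0.30 ± 0.15 (SE), with an interval of -0.04 to 0.63 and an adjusted p of 0.685 in limma. Without knockout 1 it was 0.40, with an adjusted p of 0.359, and the groups separated. *Fdft1* overlaps *Ctsb* on the opposite strand, which averaged 505 TPM, and whether the counting used strand is not given here.

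*Sqle*, the squalene epoxidase, averaged 30.2 ± 5.78 TPM in the knockouts and 26.03 ± 6.55 TPM in the controls, with a log2 fold change of 0.21 ± 0.19 (SE). *Lss*, the cyclase that forms lanosterol, averaged 12.1 ± 3.09 TPM in the knockouts and 10.3 ± 1.74 TPM in the controls, with a log2 fold change of 0.19 ± 0.19 (SE). In both genes knockout 1 was the lowest of the 8 libraries or next to it.

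**Figure D3:**
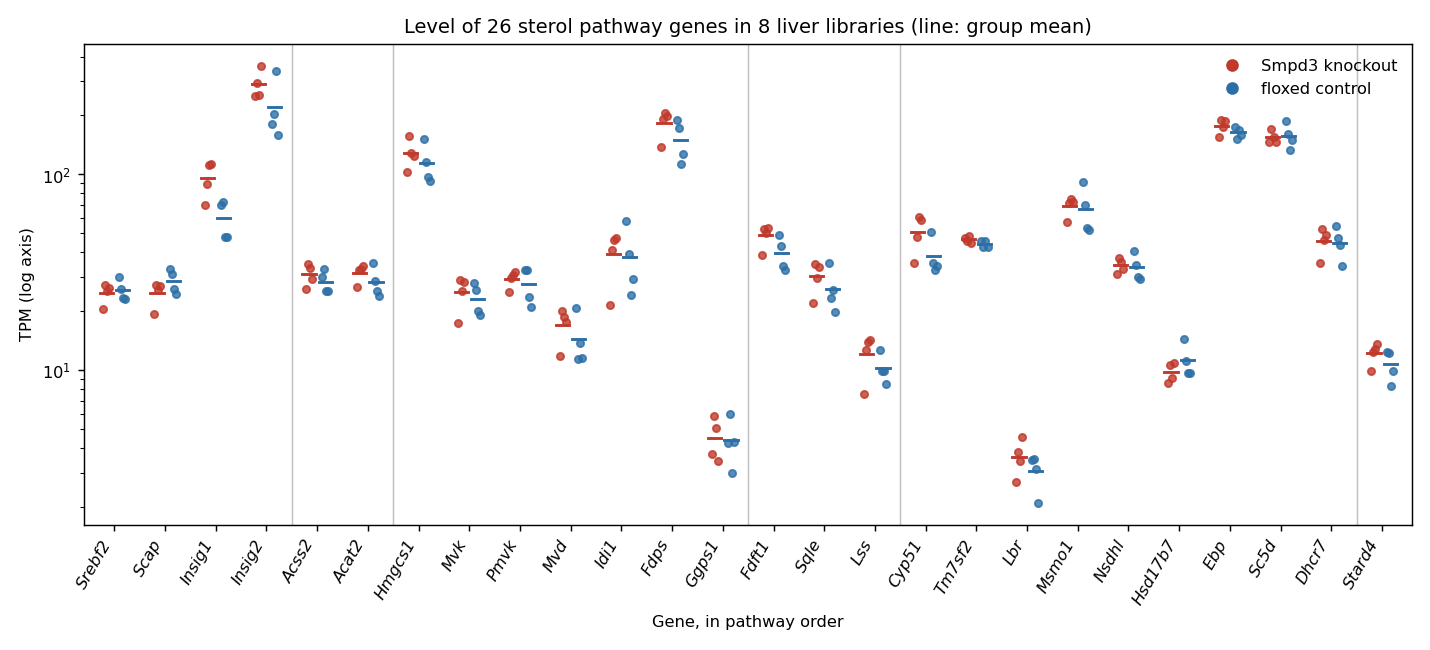
TPM of the 26 genes in each library on a log axis (y axis), by gene in pathway order (x axis). Red points are the 4 knockout libraries and blue points, to their right, the 4 floxed controls, with short lines at the group means. The points of both groups overlap in every gene, and *Insig2* has the highest mean and *Lbr* the lowest, 3.34 TPM.

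Of the 9 genes from lanosterol to cholesterol, 7 had a fold change above 0, with a median of 0.07, and none passed the test. The share above 0 was 64.6% over all tested genes. *Cyp51* (ENSMUSG00000001467), the lanosterol demethylase of the cytochrome P450 family, had the largest difference of the 19 enzymes. It had 35.21, 48.18, 60.45 and 58.58 TPM in knockouts 1 to 4, against 51.08, 35.28, 32.49 and 34.01 TPM in controls 1 to 4. Control 1 stood far above the other controls, and knockout 1 lay among those lower controls. The log2 difference of *Cyp51* was 0.39 ± 0.19 (SE), with an interval of -0.03 to 0.81 and an adjusted p of 0.662 in limma. It was 0.55 without knockout 1, with an adjusted p of 0.267, and 0.53 without control 1, with an adjusted p of 0.456. *Akap9*, on the opposite strand of the same locus, averaged 6.18 TPM.

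*Ebp* (ENSMUSG00000031168), the isomerase that moves a sterol ring double bond, was the most abundant of the 19 enzymes. It had 155.53, 188.96, 175.01 and 188.20 TPM in knockouts 1 to 4, against 175.41, 152.54, 168.87 and 159.73 TPM in controls 1 to 4. Knockouts 2 and 4 stood above every control and knockout 1 fell among the low controls. The estimate was a log2 fold change of 0.11 ± 0.09 (SE), with an interval of -0.08 to 0.30 and an adjusted p of 0.858 in limma.

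The sterol reductase gene *Tm7sf2* was the steadiest member, with 44.65 to 48.25 TPM in the knockouts and 42.46 to 45.87 TPM in the controls, and a log2 fold change of 0.08 ± 0.08 (SE). Its locus overlaps *Vps51* on the same strand, which averaged 17.7 TPM. *Lbr*, which encodes a reductase for the same reaction that is also a nuclear envelope protein, averaged 3.63 ± 0.79 TPM in the knockouts and 3.06 ± 0.65 TPM in the controls, a log2 fold change of 0.19. *Lbr* and *Ggps1* were the only members with a mean under 5 TPM.

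The sterol demethylation genes *Msmo1*, *Nsdhl* and *Hsd17b7* encode an oxidase, a dehydrogenase and a reductase that act in turn to remove methyl groups. *Msmo1* averaged 69.0 ± 7.89 TPM in the knockouts and 66.9 ± 18.5 TPM in the controls, a log2 fold change of 0.07. *Nsdhl* averaged 34.3 ± 2.84 TPM in the knockouts and 33.7 ± 5.28 TPM in the controls, a log2 fold change of 0.04. *Hsd17b7* averaged 9.83 ± 1.13 TPM in the knockouts and 11.3 ± 2.26 TPM in the controls, and its log2 fold change of -0.17 ± 0.15 (SE) was the lowest of the 19 enzymes. In all 3 genes control 1 was the highest of the 8 libraries.

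The last steps differed least. *Sc5d*, the sterol desaturase, averaged 155 ± 11.7 TPM in the knockouts and 158 ± 22.9 TPM in the controls, a log2 fold change of -0.02 with an interval of -0.26 to 0.22. *Dhcr7*, the reductase of a final step, averaged 45.9 ± 7.64 TPM in the knockouts and 44.9 ± 8.41 TPM in the controls, a log2 fold change of 0.03. For the genes of these steps the direction turned under some settings, given with the settings.

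*Stard4* (ENSMUSG00000024378), which encodes a cytosolic carrier of sterols, had 9.93, 12.48, 12.81 and 13.70 TPM in knockouts 1 to 4, against 12.40, 12.22, 8.37 and 9.94 TPM in controls 1 to 4. Knockouts 2, 3 and 4 stood just above every control, and knockout 1 lay just below control 4. The difference on the log2 scale was 0.18 ± 0.15 (SE, adjusted p = 0.863 in limma).

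Among the enzymes the libraries of 1 group differed by more than the group means did. For each library the deviation from the mean of all 8 libraries, in log2(TPM + 1), was averaged over the 19 enzymes. It was -0.25, 0.20, 0.15 and 0.16 in knockouts 1 to 4, against 0.25, -0.00, -0.23 and -0.28 in controls 1 to 4. Knockout 1 thus lay with controls 3 and 4, and control 1 lay above every knockout. The group means were 0.06 ± 0.21 in the knockouts and -0.06 ± 0.24 in the controls (SD, n = 4 each), a gap smaller than either SD. Knockout 1 was the lowest knockout for 16 of the 19 enzymes, and control 1 was the highest control for 17 of the 19.

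The same mean over all tested genes was -0.10, 0.09, 0.04 and 0.07 in knockouts 1 to 4, against 0.07, 0.05, -0.01 and -0.22 in controls 1 to 4. Knockout 1 and control 4 were thus low over all genes as well. After median-of-ratios scaling, the enzyme means were -0.13, 0.09, 0.11 and 0.07 in knockouts 1 to 4, against 0.18, -0.05, -0.21 and -0.06 in controls 1 to 4. Control 1 stayed the highest and control 3 became the lowest. The part of these library differences in the enzyme values was not tested.

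The summed TPM of the 19 enzymes was 909, 1207, 1163 and 1161 in knockouts 1 to 4, against 1248, 1039, 885 and 881 in controls 1 to 4. The spread within groups was wider than usual: the median SD on the log2 scale was 0.26 over the 26 members, 0.21 over all tested genes and 0.18 over the 6176 tested genes with a mean of at least 10 TPM. No test was made of that difference.

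**Figure D4:**
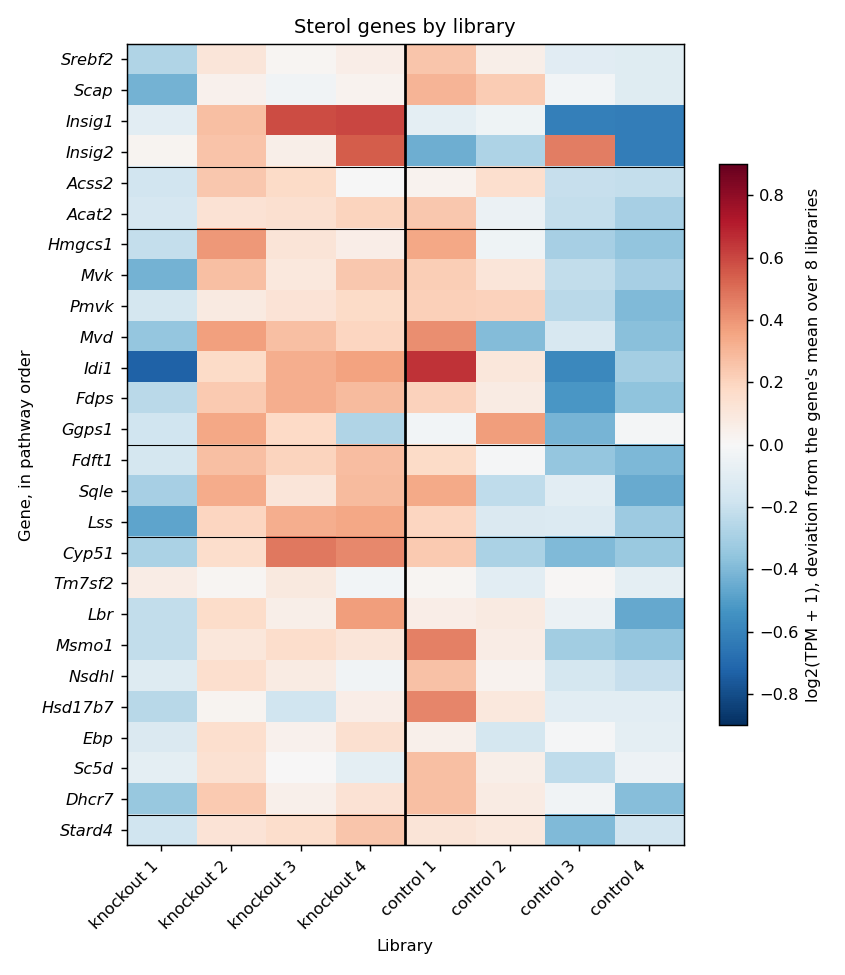
Deviation of each gene from its mean over the 8 libraries, in log2(TPM + 1), as colour from blue (low) to red (high). Rows are the 26 genes in pathway order, and columns are knockouts 1 to 4, then floxed controls 1 to 4. Knockout 1 and controls 3 and 4 are low, and control 1 is high, along most of the enzyme rows.

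The directions of the sterol genes depended on single libraries, and leaving out floxed control 3 or 4, given above, lowered their median. Without knockout 1, 24 of the 26 log2 fold changes were above 0, with a median of 0.24, beside 72.6% of all tested genes and their median of 0.10. Unadjusted p then lay under 0.05 for 5 members, *Insig1*, *Fdps*, *Fdft1*, *Lss* and *Cyp51*, which is 5 of 26 beside 11.1% of all tested genes in that setting. The groups separated in *Insig1*, *Fdps*, *Fdft1* and *Stard4*, which is 4 of 26 beside 12.1% of all tested genes. Without control 1, 24 of 26 were again above 0, with a median of 0.24, beside 71.6% of all tested genes. The 5 members with unadjusted p under 0.05 were then *Insig1*, *Mvd*, *Fdps*, *Fdft1* and *Cyp51*, beside 7.65% of all tested genes, and no member separated, beside 7.70%. No member passed the adjusted threshold in either case.

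*Insig1* was also set against the enzymes within each library, a measure chosen after the values were seen and given with no test. The *Insig1* deviation minus the enzyme mean was 0.16, 0.07, 0.44 and 0.44 in knockouts 1 to 4, against -0.34, -0.04, -0.39 and -0.34 in controls 1 to 4. The groups did not overlap in it, with knockout 2 the nearest to the controls. No share of all tested genes that separate in the same measure is given, so this separation has no background beside it. In this measure knockout 1, the low library of its group for the enzymes, lay among the other knockouts. The like measure for *Insig2* was 0.28, 0.05, -0.09 and 0.38 in knockouts 1 to 4, against -0.69, -0.27, 0.68 and -0.34 in controls 1 to 4, and there the groups overlapped through control 3.

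**Figure D5:**
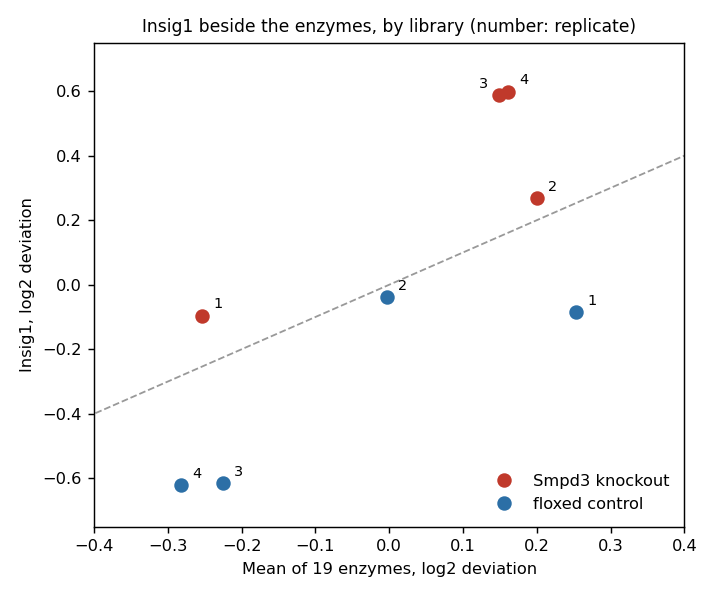
Deviation of *Insig1* (y axis) against the mean deviation of the 19 enzymes (x axis) in each library, both in log2(TPM + 1) from the mean of the 8 libraries. Red points are knockouts 1 to 4, blue points floxed controls 1 to 4, and the dashed line marks equal values. The knockouts lie above the line and the controls below it.

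The neighbouring genes of the pathway were read from 6 further lists, and none of their members passed the adjusted threshold. Their counts of directions stand beside 64.6% of all tested genes above 0, with a median of 0.05. Of 20 tested genes of SREBP processing and sterol sensing, 15 had a fold change above 0, with a median of 0.06. *Sec24d*, a coat protein gene of the vesicles that carry Scap cargo, had 38.01, 48.00, 49.12 and 55.90 TPM in knockouts 1 to 4, against 36.68, 38.63, 38.19 and 40.22 TPM in controls 1 to 4. Only knockout 1 lay within the control range, and the log2 fold change was 0.29 ± 0.12 (SE, adjusted p = 0.534 in limma). *Spring1*, listed as *2410131K14Rik*, which supports Scap and SREBP processing, had 2.16 to 2.48 TPM in the knockouts and 1.53 to 2.06 TPM in the controls, without overlap. It was the only 1 of the 20 to separate, beside 4.74% of all tested genes. Its log2 fold change was 0.31 ± 0.13 (SE, adjusted p = 0.605 in limma). *Vcp*, the ATPase that extracts membrane proteins for degradation, had a log2 fold change of 0.19 (adjusted p = 0.707 in limma).

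Of the 6 tested redox partners of the sterol enzymes, 2 had a fold change above 0, with a median of -0.01. *Por*, the reductase that feeds electrons to *Cyp51* and *Sqle* proteins, had 74.27, 87.50, 127.53 and 76.63 TPM in knockouts 1 to 4, against 111.75, 199.32, 73.55 and 152.51 TPM in controls 1 to 4. Control 3 was the lowest of all 8, as it was the lowest control for *Dbp*. The log2 difference of *Por* was -0.49 ± 0.28 (SE, adjusted p = 0.732 in limma). *Cyb5b*, a cytochrome b5 gene, had a log2 fold change of 0.30 (adjusted p = 0.740 in limma), and *Erg28*, known from yeast as a scaffold of the sterol demethylation enzymes, had -0.08 (adjusted p = 0.937 in limma).

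Of the 14 isoprenoid-using genes, 9 had a fold change above 0, with a median of 0.04. *Dhdds*, a subunit of the enzyme that makes the dolichol chain, had a log2 fold change of 0.32 (adjusted p = 0.677 in limma). *Rabggta*, a geranylgeranyl transferase subunit, had 0.17, and *Pdss2*, a subunit for the coenzyme Q side chain, had 0.21. Of the 4 sterol esterification genes, 1 had a fold change above 0, with a median of -0.04. *Nceh1*, a cholesterol ester hydrolase, had a log2 fold change of -0.23 (adjusted p = 0.685 in limma), *Lcat*, the plasma acyltransferase, 0.11 and *Soat1*, the acyltransferase of the endoplasmic reticulum, -0.08.

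Of the 12 lipogenic genes, which SREBP1 is known to drive, 8 had a fold change above 0, with a median of 0.16. *Srebf1*, the gene of SREBP1, averaged 31.3 ± 4.76 TPM in the knockouts and 25.9 ± 3.10 TPM in the controls, with a log2 fold change of 0.26 ± 0.13 (SE, adjusted p = 0.685 in limma). *Thrsp*, a lipogenic regulator, had 11.33, 15.49, 11.75 and 18.28 TPM in knockouts 1 to 4, against 24.39, 13.42, 20.49 and 21.74 TPM in controls 1 to 4. Its groups overlapped through control 2, and the log2 fold change was -0.46 ± 0.20 (SE, adjusted p = 0.609 in limma). *Mlxipl*, the gene of the carbohydrate-responsive factor ChREBP, had a log2 fold change of 0.47 (adjusted p = 0.697 in limma).

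The last list held 9 genes around LXR, the nuclear receptor that oxysterols activate. They were the LXR genes *Nr1h3* and *Nr1h2*, targets of LXR, and *Nr1h4*, which encodes another receptor, FXR. Of the 9, 3 had a fold change above 0, *Nr1h3*, *Nr1h2* and the lipid transfer gene *Pltp*, with a median of -0.10 over the list. *Abcg8*, a subunit of the transporter that moves sterols into bile, had 16.88, 18.72, 18.70 and 12.25 TPM in knockouts 1 to 4, against 21.76, 31.71, 20.44 and 19.08 TPM in controls 1 to 4. Every knockout lay below every control, with a narrow gap at control 4. *Abcg8* was the only 1 of the 9 to separate, beside 4.74% of all tested genes. The estimate was a log2 fold change of -0.45 ± 0.18 (SE, adjusted p = 0.550 in limma). Its partner subunit *Abcg5* had a log2 fold change of -0.21, and *Nr1h3*, the gene of LXR alpha, 0.11.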

How the data were processed

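RNA was measured in 8 mouse liver libraries, 4 knockout and 4 floxed control, prepared, per the labels, with a kit for total RNA that keeps strand. The deposited table gives TPM, a share of each library's total, to 2 decimals. RSEM 1.3.3 and the human build GRCh38.p13 are named in the submitters' processing notes, although the identifiers are of mouse genes. Aligner, annotation release and use of strand were not given in the sources used here. TPM keeps no depth, so no counting interval is given, and a change in abundant transcripts moves every other value.

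Of 55416 identifiers, 52083 matched a symbol. The 12710 genes that reached 1 TPM in 4 or more libraries were compared as log2(TPM + 1), a scale that understates changes of low genes, in limma 3.58.1 under R 4.3.3 (lmFit, eBayes with trend, no covariates), adjusted by Benjamini-Hochberg over all of them. The fit was tested on simulated data. All 26 members passed that filter. The members and gene lists were chosen with earlier results of these data known, so lists carry no test of their own. Values of every library are given for members with unadjusted p under 0.05 or separated groups, the regulators, and in each step the member of largest fold change and of highest TPM. From each neighbouring list the 3 members of smallest p are named. Other values were chosen after they were seen. Overlapping genes come from GENCODE M21 and promoter windows from RefSeq on GRCm38.p6, which may not be the authors' annotation. The 18 alternatives were other pseudocounts (0.1 and 5), filters, scalings, eBayes settings, library weights, the replicate block and leaving out each library.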

Additional observations from a re-analysis of the deposited data

Results flagged for a closer look

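Dixon's gap test at the 95% level, which chance passes in about 1 of 20 groups, was run in each group of 4 libraries. It compared the highest and lowest values with the other 3, for the 26 genes, *Smpd3* and the mean deviation of the 19 enzymes. Of the 56 groups examined, which share their libraries, 3 passed. The mean deviation of the 19 enzymes in knockout 1 was -0.25 on the log2 scale, far below knockouts 2, 3 and 4. *Msmo1* had 57.3 TPM in knockout 1, the low library of its group. *Cyp51* had 51.1 TPM in floxed control 1, the high library of its group.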

How the results depend on the processing

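No member passed the adjusted threshold under any of the 18 alternatives, and the smallest adjusted p of a member was 0.130, for *Insig1* with library weights in limma. Of 466 member fold changes under alternatives, 438 kept their direction and 28 turned. The number of genes called over the whole table was 13 as reported, 8 and 6 with pseudocounts of 0.1 and 5, 20 after rescaling without mitochondrially encoded and the 20 most abundant genes, and 20 with library weights. In limma it was 0 without a filter on low values, where 1539 genes had an unadjusted p under 0.05, and it ran from 0 to 12 when each library was left out. With the replicate block it was 0 in limma, with 743 genes at an unadjusted p under 0.05, and *Insig1* kept 0.68 with an adjusted p of 0.526. Same-numbered libraries deviated from their group means with correlations of -0.15, 0.03, -0.15 and -0.20 for numbers 1 to 4. Of the 8 libraries, 0 correlated best with their own number. With so few libraries this cannot settle whether a number marks a pair, and the labels do not say. Members with separated groups numbered 0 as reported, 2 after median-of-ratios scaling (*Insig1* above, *Scap* below, beside 5.72% of all tested genes) and 0 to 4 when each library was left out, beside 6.69% to 12.1% of all tested genes.

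Median-of-ratios scaling turned *Ggps1* (-0.0093), *Nsdhl* (-0.0204) and *Dhcr7* (-0.0242). Quantile normalization turned *Idi1* (-0.0071), *Ggps1* (-0.0125), *Nsdhl* (-0.0306) and *Dhcr7* (-0.0272). Leaving out each library gave log2 fold changes of -0.0875 to 0.0401 for *Srebf2*, -0.103 to 0.0621 for *Sc5d*, -0.0943 to 0.172 for *Ggps1*, -0.0262 to 0.130 for *Nsdhl*, -0.0893 to 0.153 for *Dhcr7*, -0.116 to 0.320 for *Idi1*, -0.0312 to 0.237 for *Msmo1* and -0.00688 to 0.196 for *Pmvk*. *Lbr* and *Ggps1* have no value under a mean of at least 5 TPM, which leaves them out. The cause of these changes was not tested.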
